A study of Caenorhabditis elegans with 2 samples.

Results

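The regions described here are the 1450 X chromosome regions outside promoters in a ChIP-seq study of ZAG-1 in Caenorhabditis elegans. They were taken from the authors' joint list of 10005 regions, which was made from both replicates and keeps background regions on purpose. A region was a member when it lay on X and its summit was not between 1000 bp upstream and 100 bp downstream of any protein-coding transcript start of the WBcel235 assembly, which is ce11. X held 1932 joint regions in all, of which 482 lay in promoters. The 5424 autosomal regions outside promoters, chosen by the same rule, served for comparison, and 20 joint regions were mitochondrial.

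Both libraries came from whole third-stage larvae of strain OP83, pooled male and female, with the genotype unc-119(ed3) III; wgIs83. The strain carries an eGFP-zag-1 transgene, and the labels name zag-1 as the target of the antibody. The 2 samples are biological replicates 1 and 2 of 1 group. In whole larvae, strong binding in few cells and weak binding in many cannot be told apart. No other genotype, stage or factor was analysed here, and neither were the control reads, so ZAG-1 binding and the signal found in any ChIP library cannot be told apart. The proportion of males, which carry a single X, is not given in the labels. With 1 group, no difference between X and autosomes could be tested over samples. X is therefore set beside the autosomes pooled and beside the range of the 5 autosomes, with exact 95% intervals that cover the counting of regions only.

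ZAG-1 belongs to the ZEB family, whose members combine zinc fingers with a homeodomain. In worms it acts in the differentiation of neurons, and vertebrate ZEB factors are known to bind CACCTG. The X chromosome of C. elegans is the target of dosage compensation, in which a condensin complex is recruited to X in hermaphrodites and lowers transcription there. Recruitment begins at scattered elements known to hold short words with the core GCGCAGG, and the complex then spreads along the chromosome. X is also known for its many tRNA genes.

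The highest members carried a recurring set of short words close to their summits. To show this, the bases from 50 bp left to 50 bp right of the summit are printed for each of the 8 highest members, as the plus strand of WBcel235 from RefSeq, and all of them lie on X. Capitals mark GCGCAGG, a word listed because of its known role in dosage compensation, and GCGAAGGG and TTATCCAC, which were read from the highest members and so describe them without being independent of them. Each word may stand on either strand, where it reads CCTGCGC, CCCTTCGC and GTGGATAA.
W02H3.3, chrX:11094166-11094266: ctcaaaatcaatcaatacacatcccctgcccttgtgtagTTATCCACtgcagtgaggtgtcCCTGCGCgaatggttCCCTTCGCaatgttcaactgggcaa
cest-16, chrX:6296492-6296592: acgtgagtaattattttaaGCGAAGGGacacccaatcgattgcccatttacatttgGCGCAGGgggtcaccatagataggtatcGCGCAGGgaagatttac
K02D3.1, chrX:13700820-13700920: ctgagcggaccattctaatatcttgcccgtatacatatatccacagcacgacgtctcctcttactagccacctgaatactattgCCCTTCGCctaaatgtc
Y41G9A.17, chrX:2997024-2997124: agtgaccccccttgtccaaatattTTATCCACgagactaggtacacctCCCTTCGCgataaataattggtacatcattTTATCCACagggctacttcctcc
F20B6.9, chrX:4209225-4209325: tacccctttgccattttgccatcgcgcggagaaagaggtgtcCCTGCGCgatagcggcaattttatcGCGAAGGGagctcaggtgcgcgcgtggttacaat
xol-1, chrX:8036394-8036494: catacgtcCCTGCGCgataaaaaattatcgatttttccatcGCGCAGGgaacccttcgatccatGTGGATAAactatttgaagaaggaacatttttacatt
ZK899.6, chrX:9465814-9465914: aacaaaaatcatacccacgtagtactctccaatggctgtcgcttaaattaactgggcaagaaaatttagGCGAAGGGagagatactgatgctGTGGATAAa
T27A8.7, chrX:16056492-16056592: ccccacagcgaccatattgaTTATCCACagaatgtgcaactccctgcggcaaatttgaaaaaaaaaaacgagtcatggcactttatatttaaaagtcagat
Each of the 8 windows holds at least 1 of the 3 words. The members are named by the nearest protein-coding start, which is not a claim that the gene is regulated from there.

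The highest regions outside promoters were mostly on X. By the authors' joint signal score, X held 9 of the 10 highest such regions, 15 of the 25 highest, 21 of the 50 highest and 31 of the 100 highest, against 21.1% of all 6874 regions outside promoters on the 6 nuclear chromosomes. The lists of the single replicates gave much the same counts. In replicate 1, X held 9 of the 10 highest and 16 of the 25 highest, and 19.3% of all. In replicate 2, X held 9 of the 10 highest and 16 of the 25 highest, and 20.2% of all. The excess narrowed further down but did not end there, with X holding 29.2% of the 500 highest and 26.4% of the 1000 highest joint regions outside promoters. Among the 5003 highest joint regions of all kinds, X had 51.9 per Mb outside promoters and autosomes 40.6. The median score was 14.8 on X and 14.5 on autosomes, with the 5 autosomes between 14.3 and 14.7.

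A score of 100 or more was reached by 12 X members and by 2 autosomal regions outside promoters. The 99th percentile was 82.6 on X and 38.9 on autosomes, and the maximum was 211.5 on X and 120.0 on autosomes. The 75th percentile was 17.7 on X and 16.7 on autosomes, so the bulk of both sets lay close together.

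**Figure D1:**
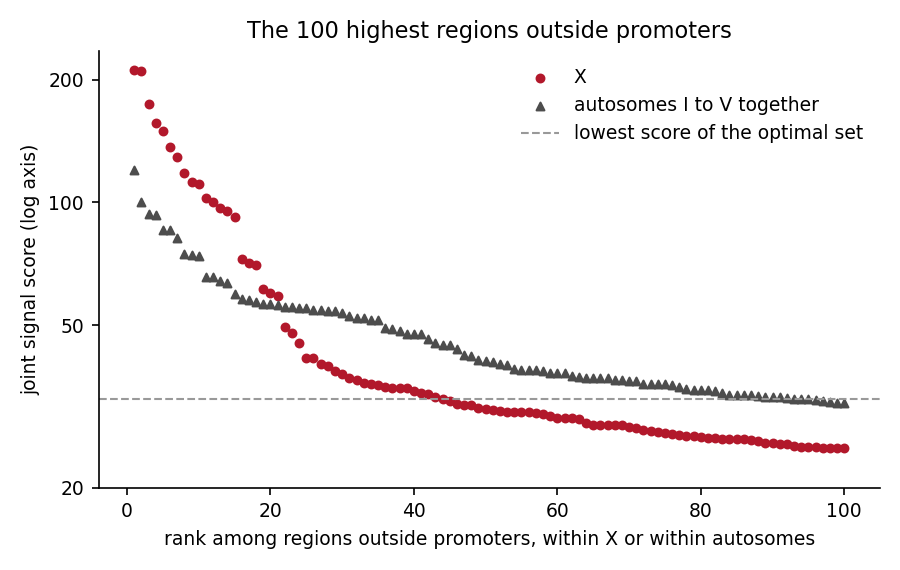
Joint signal score (log axis) against rank for the 100 highest regions outside promoters on X (circles) and on autosomes I to V together (triangles). The first 15 X regions score from 92.0 to 211.5 and the next one 72.9, and from rank 22 the larger autosomal set is the higher one at the same rank.

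The 15 highest members stood apart from the rest of X by their scores, with a step from 92.0 at the last of them to 72.9 at the next. The step was noticed in the scores, so these 15 are a description and not a class. Of them, 12 were intergenic, 2 lay in introns and 1 lay in a coding exon. They were scattered, falling in 12 of 18 bins of 1 Mb, with no pair closer than 247530 bp. Only 4 autosomal regions outside promoters scored as high.

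All 15 were found in both replicates, meaning that each replicate list held a summit within 100 bp, as was the case for 35.3% of all joint regions. Their scores ran from 29.8 to 94.5 in replicate 1, where the lowest rank was 61 of 30000, and from 43.9 to 121.5 in replicate 2, where the lowest rank was 79 of 26202. Scores are the authors' signal over control within 1 list, so levels are not compared between lists, and depth is unknown. The joint list was itself made from both replicates, so a match in them is not independent of it.

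The first of them lay in intergenic sequence 3970 bp downstream of the start of W02H3.3, at chrX:11094095-11094352, and scored 211.5 in the joint list, 94.5 in replicate 1 and 117.4 in replicate 2. The second lay at chrX:6296454-6296649 in an intron of mom-1, which encodes a Porcupine homologue needed for Wnt secretion, and scored 209.9 jointly, 92.4 in replicate 1 and 121.5 in replicate 2. Its nearest start is that of cest-16, a carboxylesterase family gene. These were also the 2 highest members in replicate 1 taken alone.

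A region 6037 bp upstream of K02D3.1 scored 173.9 jointly, 58.7 in replicate 1 and 120.4 in replicate 2. One in an intron of Y41G9A.17 scored 157.0 jointly, 58.6 in replicate 1 and 99.4 in replicate 2. One 1790 bp upstream of F20B6.9 scored 149.9 jointly, 66.8 in replicate 1 and 85.0 in replicate 2. All 3 ranked among the 20 highest regions of either replicate, promoters and mitochondrial DNA included.

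The region at chrX:8036252-8036635 lay 4869 bp before the start of xol-1, which directs sex determination and dosage compensation according to the number of X chromosomes. It scored 136.9 jointly, 56.6 in replicate 1 and 81.5 in replicate 2. It was the highest member near a tRNA gene, 241 bp away. As printed above, its window holds GCGCAGG on both strands.

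The remaining 9 of the 15 lay nearest to ZK899.6 (joint score 128.9), T27A8.7 (117.9), sma-9 (112.3), gtr-1 (110.8), F55G7.5 (102.5), F22H10.2 (100.3), F19H6.5 (96.9), C41A3.2 (95.2) and C30E1.4 (92.0). Of these, sma-9 encodes a Schnurri homologue of the TGF-beta pathway that sets body size, and its region lay 3001 bp upstream. The region given to C41A3.2 was the only one of the 15 in a coding exon, that of the polyketide synthase gene pks-1, 15193 bp from the nearest start.

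The 10 members that follow, down to rank 25, scored between 41.7 and 72.9. They lay nearest to mig-15, which encodes a kinase of cell and axon migration (72.9), W01H2.2 (71.1 and 41.7, with summits at 4222975 and 4223178), the trehalose phosphate synthase gene tps-1 (70.4), ldb-1, which encodes a LIM domain-binding cofactor (61.2), F46G11.4 (60.2), F09A5.3 (59.2), the nuclear hormone receptor gene nhr-3 (49.6), the heterochronic gene lin-14 (47.8) and the IkappaB homologue gene nfki-1 (45.2). Of these, the region by tps-1 and the higher one by W01H2.2 had no summit within 100 bp in replicate 1, with scores of 43.01 and 52.1 in replicate 2. The other 8 were found in both replicates. The 2 regions by W01H2.2 overlap, so they are not separate observations of the same kind as the rest. The lower of them had 19.04 in replicate 1. The region by tps-1 likewise overlaps a lower member, with its summit at 17480241 and 31.5 in replicate 1. Replicate 1 thus had signal at these sites, with summits over 100 bp away from the higher members.

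GCGCAGG was concentrated in the highest X members. Within 50 bp of the summit it was present in 7 of 43 X members of the optimal set (16.3%, interval 6.81 to 30.7) and in 0 of 94 autosomal ones, where the upper bound of the interval was 3.85%. The optimal set is the authors' subset of 357 regions selected for agreement between replicates, and it equals the 357 highest of the joint list (3.57% of it). Among X members not in it, 6 of 1407 held the word (0.426%), and 1 of these 6, by Y41G9A.17, overlaps the region of 157.0 there. In windows centred 500 bp to the left and to the right of the optimal X summits it occurred in 1 and 0 of 43. X promoter regions held the word in 5 of 482 cases (1.04%), against 13 of all 1450 members (0.897%). Of the optimal X promoter regions, 2 of 44 held it (interval 0.555 to 15.5). Its presence is thus not particular to X regions outside promoters.

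The word is about as common on X as elsewhere. Windows of the same length laid end to end over each chromosome held it in 0.184% on X and 0.187% on autosomes. In all, 13 X members held it, with a median score of 38.6, and 11 of them (84.6%) were found in both replicates. The 13 autosomal regions outside promoters that held it scored at most 21.4, and 5 of them were found in both replicates. The 13 X members with the word included 10 in intergenic sequence, against 634 of 1437 X members without it (44.1%). The one extra G of GCGCAGGG, searched after the data were seen, was present in 11 of the 13 X members and in 3 of the 13 autosomal regions. This longer word is somewhat commoner on X, in 0.0388% of windows laid end to end against 0.0263% on autosomes.

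GCGAAGGG and TTATCCAC followed the same split. They were among the most frequent words of 8 bases in the windows of the optimal X members, at 7 and 6 of 43, and were in 2 each of the 1407 other X members. Both were in 0 of the 94 autosomal optimal regions. At least 1 of the 3 words was in 11 of the 15 highest members, in 1 of the 28 other optimal members, and in 10 of the 1407 members beyond them (0.711%). Windows laid end to end held at least 1 of them in 0.477% on X and 0.461% on autosomes. Taken alone, GCGAAGGG was in 0.0730% and 0.0551%, and TTATCCAC in 0.226% and 0.219%. Since the last 2 words were read from the same windows, their share there has no independent weight. Among the 44 X promoter regions in the optimal set, which were not used to find the words, 3 held at least 1 of them.

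GAGAGA, a word listed because it recurs at summits of the whole series, had the opposite distribution. It was in 2 of the 15 highest X members, against 9 of the 15 highest autosomal regions outside promoters. Among the 28 other optimal X members it was in 15 (53.6%), a share like the 49 of 94 (52.1%) of autosomal optimal regions. Only 1 of the 15 highest members, that by ZK899.6, held GAGAGA together with any of the 3 words. Over all members GAGAGA was in 7.52% (interval 6.21 to 8.997), against 8.54% of autosomal regions and 6.72% to 10.8% on single autosomes. The windows 500 bp to the left and right of X members held it in 5.31% and 4.41%.

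**Figure D2:**
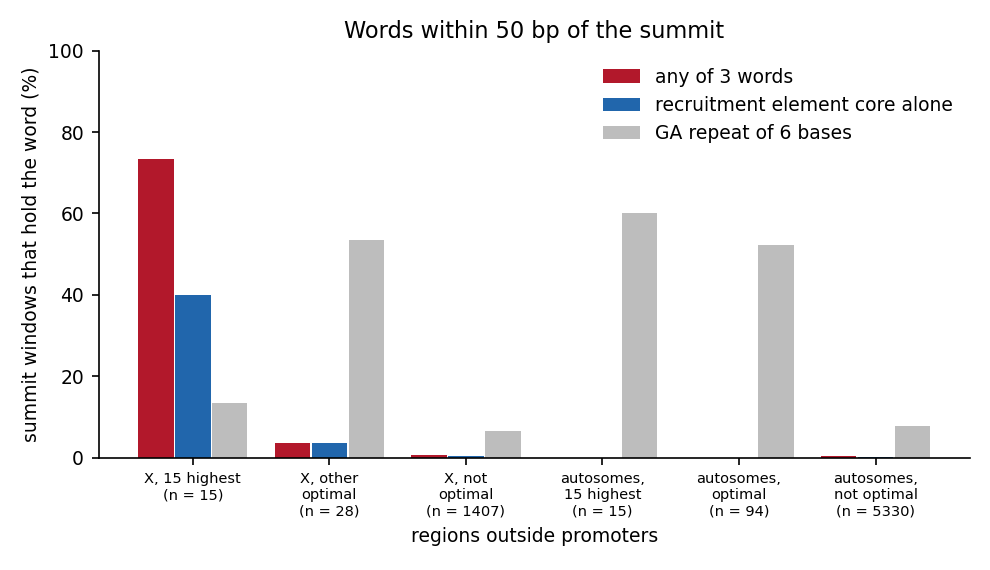
Share of summit windows, 50 bp to either side (%), that hold at least 1 of the 3 words printed in capitals, the recruitment element core alone (GCGCAGG), or the GA repeat of 6 bases (GAGAGA), in 6 sets of regions outside promoters with their numbers. The 3 words are in 73.3% of the 15 highest X regions and 3.57% of the other optimal ones on X, while the GA repeat is in 13.3% and 53.6%.

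Over all members, CACCTG, the vertebrate ZEB site, was no more frequent at the summits than beside them. It was in 23 of 1450 windows (1.59%, interval 1.01 to 2.37), against 2.62% and 2.55% in the windows to the left and right. Autosomal regions outside promoters had it in 1.95%. In the optimal set it was in 3 of 43 X members (6.98%, interval 1.46 to 19.1) and 2 of 94 autosomal regions. The windows to the left and right of these held it in 2 and 1 of 43 on X and in 3 and 4 of 94 on autosomes. These counts are too small to tell the summits from the windows beside them. The shorter CACCT, which lies inside CACCTG, was in 9.24% of X members and 7.89% of autosomal regions. It too was no more frequent there than in the windows to the left and right. Those held it in 10.7% and 9.93% for X and in 10.5% and 9.73% for autosomes.

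Of the other words listed for the search, CGTCTC was in 7 of 43 optimal X members and 29 of 94 autosomal ones. GACGCA was in 4 and 19, and GATAAG, the site of intestinal GATA factors, in 1 and 2. The windows to the left and right held CGTCTC in 1 and 2 of 43 on X and in 2 and 1 of 94 on autosomes. For GACGCA these were 1 and 2 on X and 2 and 0 on autosomes, and for GATAAG 0 and 1, and 3 and 3. Optimal members were richer in GC than the rest, at 48.1% ± 8.0 (SD, n = 43 windows) on X and 48.1% ± 8.36 (SD, n = 94 windows) on autosomes, against 34.6% ± 8.98 (SD, n = 1407 windows) for X members not in the set. Words were not corrected for this.

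Most members were lower regions outside the optimal set, which held 43 of 1450 (2.97%, interval 2.15 to 3.97). In the whole joint list 3.57% were optimal, promoters included, so the members' share is below that of the list. Autosomal regions outside promoters were optimal in 94 of 5424 cases (1.73%), and in 1.45% to 2.24% on single autosomes, so X stood above each of them, although its interval includes the highest. Without members near a tRNA gene X had 2.74%, and without those that hold GCGCAGG 2.51%, against 1.71% and 1.74% on autosomes.

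Support in the replicates followed the score. Both replicates had a summit within 100 bp for 521 members (35.9%, interval 33.5 to 38.5), a share close to the 35.3% of all joint regions. Autosomal regions outside promoters had 32.9%, with single autosomes from 31.2% to 34.2%, the highest again within the interval of X. Replicate 1 held 815 members (56.2%, against 56.1% of all joint regions) and replicate 2 held 1070 (73.8%, against 72.9%). No match in either replicate was found for 86 members (5.93%), although both went into the joint list.

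Both replicates held 86.05% of the 43 optimal members, 64.5% of the 169 members with scores from 20 to 33, 46.9% of the 322 from 16 to 20, 31.9% of the 373 from 14 to 16 and 19.3% of the 543 below 14. Autosomal regions of the same bands had 89.4%, 64.7%, 46.2%, 32.3% and 17.7%. At equal score, support was therefore much alike on X and on autosomes.

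Over the 521 members found in both replicates, Spearman's rho between replicate scores was 0.19 and Pearson's r of the log2 scores 0.61. Over the 37 optimal ones rho was 0.71, and over the 484 others 0.027. The split is by joint score, which was made from both replicates, and it narrows the range of the others, so the 2 values are not compared. All are across regions, which share libraries and are not independent replicates. Of the 43 optimal members, 29 were among the 357 highest regions of replicate 1 and 35 among those of replicate 2. Wide disagreements were seen at pigx-1, with 24.5 in replicate 1 and 7.55 in replicate 2. Another was at a lower region by C30E1.4, with its summit at 16929884 and scores of 5.78 and 30.1. The latter overlaps the highest region there, which had 41.4 and 43.9, so the site itself was found in both replicates. These 2 cases were picked after their values were seen.

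**Figure D3:**
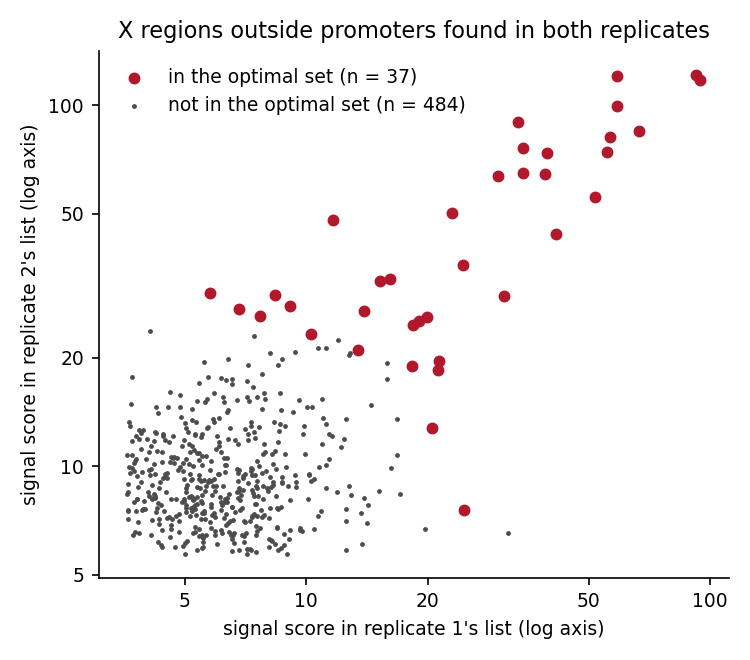
Signal score in the list of replicate 2 against that in replicate 1 (both log axes) for the 521 X regions outside promoters found in both, with the 37 of the optimal set as large circles. The optimal members rise together up to 94.5 in replicate 1 and 121.5 in replicate 2, and the 484 others form a cloud at lower scores.

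Regions outside promoters were denser on X. It held 102.5 per Mb of sequence outside promoter windows (interval 97.3 to 107.9, over 14.1 Mb), against 87.7 on autosomes (85.4 to 90.1), and each autosome was lower, from 72.99 on V to 96.4 on III, whose interval of 90.6 to 102.5 overlaps that of X. Because promoter windows take up less of X, 20.1% against 25.1% of autosomes, the length was counted without them. The regions outside promoters were 75.1% of all X regions and 67.4% of all autosomal ones, with single autosomes from 65.1% to 70.9%.

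The difference in density lay mainly in intergenic sequence. X had 124.0 regions per Mb of intergenic sequence outside promoters (interval 114.6 to 133.9), against 102.5 on autosomes (97.7 to 107.5). In introns it had 110.7 (101.4 to 120.7), against 103.8 (99.7 to 107.99), and in coding exons 50.95 (43.3 to 59.5), against 48.6 (45.4 to 52.1), with overlapping intervals in both. In untranslated exons X was the lower, at 123.5 (96.8 to 155.3), against 141.5 (126.1 to 158.3), again with overlapping intervals. Single autosomes reached 120.3 in intergenic sequence on III and 116.9 on I, within the interval of X. Noncoding genes, tRNA genes among them, had 98.1 per Mb on X (73.2 to 128.6) and 63.2 on autosomes (54.4 to 72.99).

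As shares, 44.4% of members lay in intergenic sequence, 36% in introns, 10.97% in coding exons, 5.03% in untranslated exons and 3.59% in noncoding genes. On autosomes the shares were 31.2%, 44.6%, 15.2%, 5.66% and 3.41%. Intergenic sequence made up 36.7% of X outside promoters and 26.7% of autosomes, a difference in the same direction as that of the regions. In the optimal set 28 of 43 X members (65.1%) were intergenic, against 39 of 94 autosomal regions (41.5%).

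**Figure D4:**
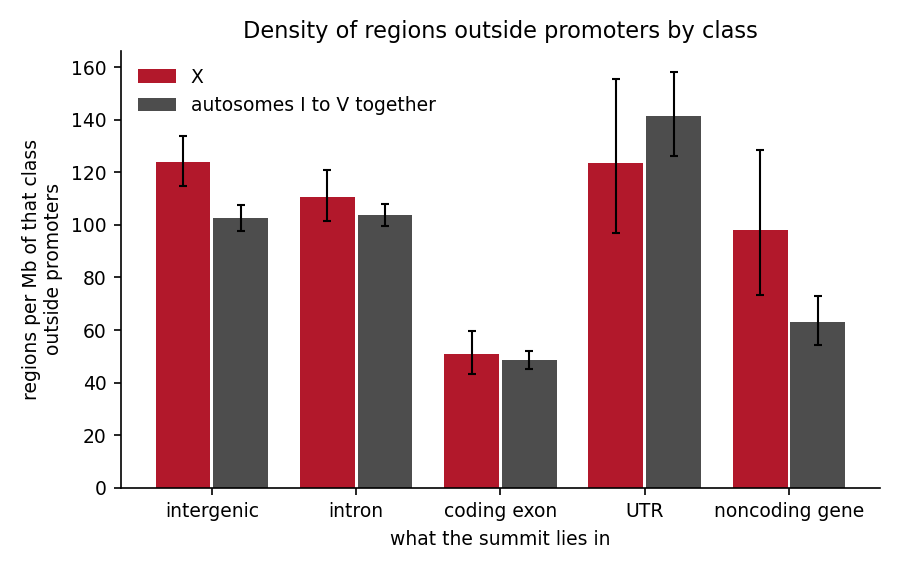
Regions outside promoters per Mb of each kind of sequence outside promoter windows, on X and on autosomes I to V taken as 1 set, with exact Poisson 95% intervals as bars. X has 124.0 regions per Mb of intergenic sequence against 102.5 on autosomes, and the intervals of the 2 sets overlap in introns, coding exons and untranslated exons (UTR).

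Members were spread over the whole chromosome. Full bins of 1 Mb held at least 56 members, with a median of 82, and each of the 18 bins held at least 1 optimal member. Cut into 3 equal stretches, X had 457 members on the left, 475 in the middle and 518 on the right, of which 13, 11 and 19 were optimal. The bin from 16000001 to 17000000 held 8 optimal members, the most of any. Those by C30E1.4, with summits at 16929684 and 16929884, overlap and are not separate observations. The left end was the emptiest, with the widest gap, 145719 bp, between summits at 12292 and 158011.

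Neighbouring members were a median of 7291 bp apart (interval 6654 to 8217), against 8555 bp on autosomes. One autosome, I, had closer spacing, at 7039 bp, and V the widest, at 10983 bp. Close pairs were about as common on X as elsewhere: 9.18% of gaps on X and 8.58% on autosomes were within 1000 bp, and 4.07% and 4.02% were shorter than the usual width of a region, so that these neighbours overlap. When members within 1000 bp were joined, 1317 groups were left, of which 1199 were single regions. The largest, in introns of vav-1, had 4 members with scores up to 14.03, and 1 of them was found in both replicates.

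Distances to genes were longer on X. The median distance to the nearest protein-coding start was 2106.5 bp (interval 1992 to 2201), against 1864.5 bp on autosomes and 1696 to 2020 bp on single autosomes. The summit was upstream of that start for 43.7% of members, against 36.7% on autosomes. More than 5000 bp from any start lay 195 members (13.4%), against 10.7% on autosomes.

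Repeated sequence was rare among the members. It held 13 of them (0.897%, interval 0.478 to 1.53), against 36 autosomal regions (0.664%), with single autosomes from 0.324% to 1.17%. Of the 13, 3 were found in both replicates and none was optimal, with a median score of 18.2.

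At the edge of the promoter window, which the rule sets, members and non-members scored alike. Just outside it lay regions 1002 bp upstream of srd-50 (score 15.1), 1008 bp upstream of trk-1 (16.3) and 1010 bp upstream of F10D7.4 (14.4). Just inside it lay regions 100 bp downstream of ZK377.15 (16.2) and pfut-1 (14.3) and 98 bp downstream of pfn-3 (14.004). Within 100 bp of the window's edge the median score was 15.2 over 52 members outside and 14.8 over 79 X regions inside.

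Regions outside promoters were placed at tRNA genes more often on X. X has 276 of the 612 nuclear tRNA genes of the annotation (45.1%), and 63 members (4.34%, interval 3.35 to 5.52) lay within 500 bp of one, against 44 of 5424 autosomal regions (0.811%). Counted by tRNA gene, which allows for their number, 78 of 228 X tRNA genes outside promoters had a region within 500 bp (34.2%, interval 28.1 to 40.8). On autosomes 46 of 251 had one (18.3%, interval 13.7 to 23.7), with 10.9% to 29.2% on single autosomes.

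In single replicates the order of X and the pooled autosomes was the same, but 1 autosome came above X. With the 10005 highest regions of replicate 1 the shares were 28.5% on X and 17.5% on autosomes (5.45% to 29.2%), and with those of replicate 2 they were 32.0% and 19.5% (11.9% to 33.3%). The higher share on X is thus not beyond the spread between chromosomes in either replicate alone. Without members in repeated sequence X had 28.5% and autosomes 17.5% (10.9% to 29.2%), since 11 of the 13 members in repeated sequence were near a tRNA gene.

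**Figure D5:**
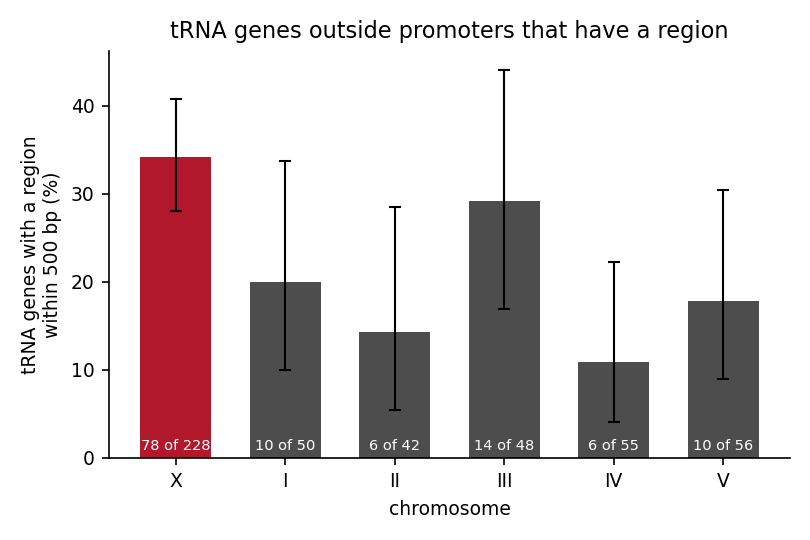
Share of tRNA genes outside promoters (%) with a region outside promoters within 500 bp, by chromosome, with exact 95% intervals as bars and counts at the foot. X has 78 of 228 (34.2%), and the highest autosome, III, has 14 of 48 (29.2%).

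The summits were close to the tRNA genes themselves. Of the 63 members, 20 had the summit inside a tRNA gene, and the median distance was 41 bp. Within 500 bp, 18 of them had 2 or more tRNA genes, so neighbouring tRNA genes share regions. Their median score was 17.2, and 27 (42.9%) were found in both replicates. The 5 in the optimal set lay by xol-1 (136.9), F46G11.4 (60.2), gpc-1 (41.6), sulp-3 (35.7) and R11.4 (34.6), and all of these except that by sulp-3 were found in both replicates.

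Other small RNA genes did not show the excess seen at tRNA genes. Outside promoters, 4 of 60 X microRNA genes had a region within 500 bp (6.67%, interval 1.85 to 16.2), against 21 of 138 on autosomes (15.2%, interval 9.67 to 22.3). For snoRNA genes it was 5 of 24 on X (20.8%, interval 7.13 to 42.2) and 53 of 213 on autosomes (24.9%, interval 19.2 to 31.2). In all, 6 members lay near a microRNA gene, 5 near a snoRNA gene and 0 near any of the 3 snRNA genes of X. The microRNA region of highest score lay by cel-mir-54, in an intron of F09A5.3, with 59.2 jointly, 11.7 in replicate 1 and 48.1 in replicate 2. The gene of let-7, a microRNA that times the larval to adult switch, had a region within its primary transcript, with a summit at 14744884 and a joint score of 16.2, which had no match in either replicate.

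A member lay nearest to the start of 861 of 2731 X protein-coding genes (31.5%) within 5000 bp. Of these genes 612 had 1 member, 172 had 2 and 77 had 3 or more. The share rose with gene length, from 21.9% of genes under 2000 bp and 31.3% of those from 2000 to 5000 bp to 41.6% of those from 5000 to 10000 bp and 73.5% of longer ones. Shares of gene lists, given next, were not corrected for length, so the median length of each list is given beside them. Over all X genes it was 2548 bp. Members near a tRNA gene were kept in these lists. Beside that by xol-1, the highest regions at nlp-76, unc-115, unc-58, lgc-21, mec-7, ain-1, col-181 and srd-43 lay within 500 bp of one. Signal at the tRNA gene and at the named gene cannot be told apart there.

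lin-14, which encodes a transcription factor that sets early larval fates, had more members than any other X gene, 12 by nearest start and 14 within the gene, which is 20312 bp long. The 2 highest, at summits 11473412 and 11472139 in introns, scored 47.8 and 39.7 jointly, 15.2 and 18.4 in replicate 1, and 32.5 and 24.6 in replicate 2, and both were optimal. They lie over 5000 bp from any lin-14 start and so are not among the 12, of which 2 were found in both replicates. Of the 14, 3 were found in both replicates, the third being at 11475612 with a joint score of 19.9. Of the other 11, each was found in 1 replicate only, 5 in replicate 1 and 6 in replicate 2, with joint scores from 12.8 to 25.1. Some of these overlap in pairs, with summits at 11467225 and 11467580, at 11470177 and 11470377, and at 11483203 and 11483406. In each such pair replicate 1 matched a different member than replicate 2. The numbers of members at lin-14 therefore include overlapping regions that are not separate observations. The region of 25.1, at summit 11478475, was found in replicate 1 with 13.03 and not in replicate 2.

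The other genes with 6 or more members by nearest start were scd-1 (8), the potassium channel gene unc-58 (7), the forkhead gene fkh-9, the Mad-like gene mdl-1, the nuclear hormone receptor gene nhr-40, pcyt-1, which encodes an enzyme of phosphatidylcholine synthesis, and T06F4.1 (6 each). Their highest scores ran from 18.4 at nhr-40 to 30.7 at pcyt-1, and none had an optimal member. At mdl-1, the only short one at 1549 bp, 4 of 6 were found in both replicates, against 2 of 6 at fkh-9, nhr-40, pcyt-1 and T06F4.1.

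Every listed heterochronic gene on X had a member. These genes time larval cell fates. The list had 7 of 7 with a member (interval 59.04 to 100, median length 7152 bp). Of these, 5 had one found in both replicates, against 379 of all 2731 X genes. The dafachronic acid receptor gene daf-12 had 5 members, the highest at 32.6 jointly, 12.7 in replicate 1 and 20.4 in replicate 2. The casein kinase gene kin-20 had 3, of which the highest, at 27.1, was found in replicate 1 only. The Argonaute gene alg-1 had 1, at 26.5, found in both replicates. The other 3 genes, named to complete the list, were the hunchback-like gene hbl-1 (16.6), the GW182 gene ain-1 (12.5) and the amyloid precursor-like gene apl-1 (12.5), with 1 each. Further out, 5671 bp upstream of hbl-1, lay a region of 31.4, found in replicate 2 only. Heterochronic genes were already known to stand out in the whole series, so this is no independent support.

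Of 6 genes of the X signal and of sex determination on X, 3 had a member (50%, interval 11.8 to 88.2, median length 5432.5 bp). Beside xol-1 they were fox-1, an RNA-binding X signal element, with 4 members up to 18.1 of which 3 were found in both replicates, and ceh-39, a homeobox X signal element, with 1 at 16.3 found in replicate 2 only. The dosage compensation genes sdc-1 and sdc-2 and the nuclear receptor gene sex-1 had none.

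Synaptic and vesicle genes had 11 of 13 with a member (84.6%, interval 54.6 to 98.1, median length 8006 bp). Of these, 8 had one found in both replicates, against 379 of all 2731 X genes. The diacylglycerol kinase gene dgk-1 had the only optimal one, 1710 bp upstream, with 33.5 jointly, 20.4 in replicate 1 and 12.7 in replicate 2. unc-10, which encodes RIM of the active zone, had 3 members up to 30.5, all found in both replicates. The kinase gene sad-1, which acts in synapse formation, had 4 up to 28.03, and the innexin gene unc-9 had 4 up to 26.8.

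Of the other neuronal lists, the interval lay above the 31.5% of all X genes only for peptide and amine receptors. That interval includes the 41.6% of X genes from 5000 to 10000 bp, where the median length of this list falls. Neuropeptide and insulin-like genes, given below, are short, and their interval lies above the 21.9% of X genes under 2000 bp. Members found in both replicates lay at 6 of 35 peptide and amine receptors and 5 of 34 neuropeptide and insulin-like genes. Over all X genes it was 379 of 2731. For the other 4 lists it was 3 of 8 touch receptor and FLP genes, 3 of 16 axon guidance genes, 5 of 19 potassium channels and 4 of 28 ligand-gated ion channels. Touch receptor and FLP genes had 5 of 8 (62.5%, interval 24.5 to 91.5, median length 4175 bp), which were lin-14, the stomatin-like gene mec-2 (17.6), the channel gene mec-4 (17.4), the tubulin gene mec-7 (14.4) and the homeobox gene alr-1 (13.6), the last named to complete the list. Peptide and amine receptors had 18 of 35 (51.4%, interval 33.99 to 68.6, 5327 bp), led by npr-21 (19.8), frpr-17 (19.2), npr-6 (18.2) and the dopamine receptor gene dop-3 (16.9). Axon guidance genes had 8 of 16 (50%, interval 24.7 to 75.3, 6778 bp), led by unc-115 (18.6), mig-13 (18.05) and the Robo gene sax-3 (17.6). The unc-115 region had its summit inside a tRNA gene and was found in replicate 1 only.

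Potassium channels had 9 of 19 (47.4%, interval 24.4 to 71.1, 8277 bp), with irk-2 (22.2), twk-23 (17.9) and twk-17 (17.2) after unc-58 (23.1). Neuropeptide and insulin-like genes had 15 of 34 (44.1%, interval 27.2 to 62.1), with a median length of 834.5 bp, led by nlp-76 (28.5), nlp-14 (22.1), nlp-61 (15.3) and nlp-1 (14.9). The nlp-76 region lay in repeated sequence in an intron of nhr-17, with its summit inside a tRNA gene. Ligand-gated ion channels had 11 of 28 (39.3%, interval 21.5 to 59.4, 3639.5 bp), led by lgc-53 (25.1), lgc-21 (22.8), lgc-32 (17.5) and lgc-15 (15.8). No member at a gene of these 3 lists was optimal.

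Among transcription factors, homeobox genes had 13 of 28 (46.4%, interval 27.5 to 66.1, 3486 bp), led by lim-4 (24.4), ceh-14 (21.2), ceh-39 (16.3) and dve-1 (16.02). Nuclear hormone receptors had 12 of 27 (44.4%, interval 25.5 to 64.7, 4321 bp). The highest was nhr-3, whose optimal intron region scored 49.6 jointly, 16.1 in replicate 1 and 32.99 in replicate 2, followed by daf-12, nhr-17 (27.7) and nhr-1 (21.6).

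In the lists that remain, chemoreceptors of sensory neurons among them, intervals also included the share of all X genes. Muscle structure genes had 5 of 14 (35.7%, interval 12.8 to 64.9, 2149 bp), led by the actin gene act-4 (29.4), the troponin T gene mup-2 (20.5), unc-97 (15.1) and tnt-3 (13.7). Collagens had 8 of 32 (25%, interval 11.5 to 43.4, 1127 bp), led by col-185 (25.6), col-187 (17.04), let-2 (16.6) and col-181 (15.5), and the col-185 region held GCGCAGG. Chemoreceptors had 7 of 33 (21.2%, interval 8.98 to 38.9, 1809 bp), led by srd-50 (15.1), str-79 (14.3), srd-43 (13.98) and srg-64 (13.4).

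Intestinal genes had 2 of 11 (18.2%, interval 2.28 to 51.8, 5128 bp), the vitellogenin gene vit-4 (13.7) and ifc-2 (12.2). Histones had 2 of 4 and cytosolic ribosomal proteins 1 of 2, numbers too small to set against all X genes, with his-71 at 15.8 and rpl-11.2 at 13.7. Over all lists the median score of the members was between 12.95 in the intestinal list and 16.4 in the heterochronic list, against 14.7 for all members given to an X gene.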

How the data were processed

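ChIP-seq regions of 2 libraries were taken from lists the authors deposited on ce11: 1 joint list, 1 optimal set selected for agreement between replicates and 1 list for each replicate, per the notes deposited with them. The score of a region is the authors' signal relative to control as deposited, and was used only within a list. The deposited −log10 q-values and the p-value column, a placeholder, were not used to rank regions, and the ce10 lists were not used. Not given in the sources used here are the aligner, the peak caller, the treatment of reads that map to several places and the threshold of the optimal set. Depth is unknown. The labels give libraries of pooled male and female larvae. Scores cannot be turned into counts, and their precision rests on 2 libraries.

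From these files, summits were placed by the deposited offset, at the region centre in 1445 of the 1450 members. Summits were set against Ensembl release 115 gene models on WBcel235, with coordinates counted from 1. Classes were given in the order coding exon, untranslated exon, intron, noncoding gene and intergenic. A member was found in a replicate when that list had a summit within 100 bp, was near a tRNA gene within 500 bp, and was given to a gene by its nearest protein-coding start within 5000 bp. A member was in repeated sequence when at least 50% of the 36-base words in 100 bp around its summit occurred again in the genome. The 7 listed words and GCGCAGGG, added after the data were seen, were searched within 50 bp of the summit on both strands and in windows shifted by 500 bp, and sequence came from the RefSeq copy of WBcel235. The lists of genes held 372 written symbols, of which 9 were not matched.

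No test over samples was possible with 1 group, so shares have exact Clopper-Pearson 95% intervals and densities exact Poisson ones, which cover the counting of regions only. Named genes were the nearest ones of the 25 highest members, up to 4 per list by highest score, and those with 6 or more members; other genes (host genes, those at the edge of the promoter window, at optimal tRNA regions or microRNAs, vav-1 and pigx-1) were named after their values were seen. One gene that the rule names is not reported here. The members and lists were chosen with earlier results of these data known. Alternatives were promoter windows, replicate distances, the 5003 highest joint regions, tRNA distances, word windows, the repeat rule and the replicates taken singly. The steps were tested on simulated data and run with NumPy 2.4.6, SciPy 1.17.1 and Python 3.11.15; figures were drawn with matplotlib 3.10.9.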

Additional observations from a re-analysis of the deposited data

How the results depend on the processing

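Of 67 alternatives, 41 left the X value within its interval and 26 moved it. X kept its side of the pooled autosomes in all but 3, all of them for repeated sequence: 0.820% on X and 0.821% on autosomes with promoters reaching from 2000 bp upstream to 500 bp downstream, 0.673% and 0.718% without replicate 1, and 2.41% and 3.37% when any repeated word counted. That promoter window also gave an outside share of 56.8%, a spacing of 9176.5 bp and a distance of 2741 bp, and a window from 500 bp upstream gave 84.6%, 6431 bp and 1833 bp. Among the 5003 highest joint regions X had 51.9 regions per Mb, an outside share of 71.9%, a median score of 17.6, 49.6% found in both replicates, a spacing of 14543 bp, 5.59% near a tRNA gene and 11.04% with GAGAGA. Support in both replicates was 24.1% within 50 bp, 49.9% within 200 bp and 58.1% by any overlap. Within 2000 bp of a tRNA gene lay 6.97%, and 14.3% had GAGAGA within 100 bp.

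Leaving out 1 replicate at a time gave median scores of 7.57 to 10.4, which are not comparable with the joint scores, 39.97% to 41.1% in intergenic sequence, 6.11% to 7.21% with GAGAGA and 56.2% to 73.8% found in the replicate that was left. It also gave 3.77% to 3.96% near a tRNA gene. The 3 alternatives added after seeing the data, which leave out members near a tRNA gene or with GCGCAGG, kept the optimal share and the replicate share within their intervals. The causes of these shifts were not tested. No paired analysis was possible because there is only 1 group of samples. With depth unknown, a region missing from a replicate list cannot be told apart from one that list was too shallow to show.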
